A study of Mus musculus with 14 samples.

Results

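The genes described here encode the machinery that starts transcription: the TATA-box-binding-protein-associated factors (Taf genes), the subunits of Mediator (Med genes), the general factors of RNA polymerases II and III (Gtf2 and Gtf3 genes) and the subunits of these polymerases (Polr2 and Polr3 genes). They were found as probe sets with exactly 1 platform gene symbol that begins with Taf or Med and a digit, or with Gtf2, Gtf3, Polr2 or Polr3. Med1 was left out by the same rule. Each gene was represented by its probe set with the highest mean over the 14 arrays, which gave 92 members among 19237 named genes. They included 1 pseudogene, Polr2d-ps2, and near-identical copies can hybridise to the same probes. The rule itself uses no expression difference, but it was set with earlier results of these data known.

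The livers came from 7 K289R mice and 7 wild-type (WT) mice, with 1 Affymetrix whole-transcript array per mouse. K289R mice carried a lysine-to-arginine substitution in LRH-1 (gene Nr5a2), a nuclear receptor of the liver, and WT mice carried the unaltered receptor. All mice were 17 to 19 weeks old, had free access to food and were killed at 7 am. The sources used here give no sex, litter or RNA batch, and do not say how the substitution was made or which cells carry it. Each label names a biological replicate. Levels are given as log2(intensity + 1), and differences as K289R minus WT on that scale with the standard error (SE) of the limma fit.

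At a promoter, TFIID recognises the core sequence, TFIIA and TFIIB stabilise it and place polymerase II, TFIIF arrives with the polymerase, and TFIIE and TFIIH open the DNA. Mediator is the bridge between this assembly and activators bound elsewhere, nuclear receptors among them. Polymerase III makes tRNA and other small RNAs with its own factors, TFIIIC and TFIIIB, and polymerase I makes ribosomal RNA with SL1.

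Hepatocyte markers were bright on the arrays, with means of 10.79 to 13.09 for the 7 measured genes, and 1 of the 7 passed the test, in the upward direction. Of 7 Kupffer cell markers, 3 fell and 1 rose, and their summed linear intensity ran from 1329 to 2447 in K289R livers and from 1901 to 2301 in WT livers. Of 5 endothelial markers 1 rose, of 6 stellate cell markers 2 rose and 1 fell, and of 5 lymphocyte markers 1 rose. Over all genes 8.37% rose and 10.8% fell at an adjusted p of 0.05 in limma. The interquartile range of the log2 values of an array lay between 2.28 and 2.70 in K289R livers and between 2.36 and 2.83 in WT livers. K289R replicates 6 and 7 had the narrowest range, at 2.28 each, and K289R replicate 5 had 2.49. K289R replicates 5 to 7 stood apart from K289R replicates 1 to 4, a division that the labels do not name. It was noticed in these same data, so the counts that follow describe the division and are no independent test of it. At a limma adjusted p of 0.05, these sets of replicates differed at 1754 genes (9.12%) in K289R livers and at 57 genes (0.296%) in WT livers. Of the members, 9 (9.78%) passed in K289R livers, all lower in replicates 5 to 7. None passed in WT livers with limma, where 0 members had an unadjusted p under 0.05. The part of cell makeup and of array quality in the results below was not tested, apart from the values given. In whole liver, fewer cells of a type and less RNA per cell cannot be told apart.

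Of the 92 members, 9 were higher and 21 were lower in K289R livers at an adjusted p of 0.05 (limma, 2-sided, Benjamini-Hochberg over all 19237 genes). That is 9.78% higher and 22.8% lower, against 8.37% higher and 10.8% lower among all genes, of which 19.1% passed in either direction. The share of members that rose was thus near the background, and the share that fell was above it. The same background of 8.37% and 10.8% applies to the counts by complex below, some of which rest on few genes. Among genes with a mean of at least 5, the background was 12% higher and 15.5% lower, and 9 (10.8%) and 19 (22.9%) of the 83 members at that level passed. With each array centred on its median, 4 members rose and 22 fell (background 4.68% and 10.6%), and Med29, Polr2j, Med31 and Gtf2h4 were the risers left. Quantile normalization gave 13 and 24 (background 10.8% and 11.3%), and equal interquartile ranges gave 11 and 24 (background 8.59% and 9.87%). The median difference of the members was -0.04, beside 0.05 over all genes. Values of the K289R arrays lay wholly below those of the WT arrays for 12 members and wholly above them for 1, where 4.73% and 2.82% of all genes did so.

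**Figure D1:**
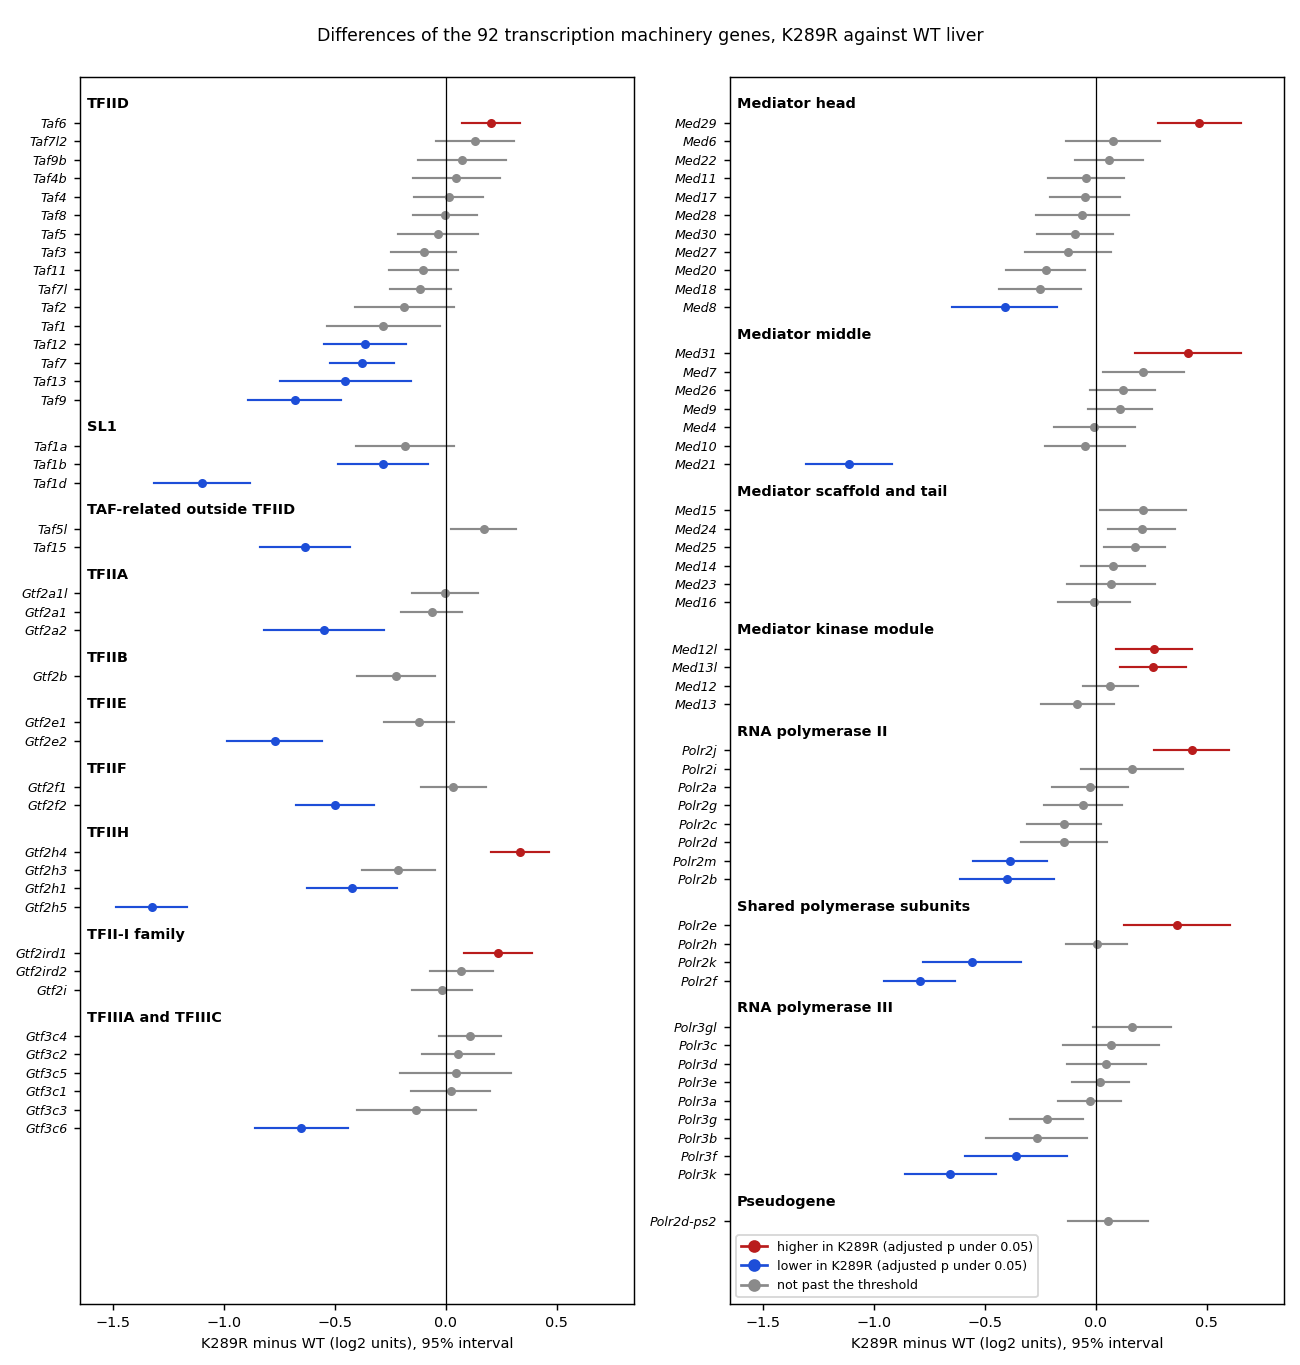
Difference K289R minus WT (x axis, log2 units) for each of the 92 members, grouped by complex; points are limma estimates and lines 95% intervals. The falls reach -1.33 at Gtf2h5 and the rises 0.47 at Med29, and 62 of the 92 members were not called.

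The largest falls were those of Gtf2h5, Med21 and Taf1d. At the probe sets taken by the rule, they were the 3 members that changed by a fold of at least 2, which 0.634% of all genes did. For Taf1d the mean of its probe sets gave a smaller difference, -0.68. Gtf2h5, which encodes the smallest core subunit of TFIIH, had a lowest, median and highest level of 6.65, 7.03 and 7.26 on the K289R arrays, against 8.24, 8.32 and 8.39 on the WT arrays. It fell by 1.33 ± 0.08 (log2, SE), a fold of 2.51, with an adjusted p of 3.48e-10 in limma. Each K289R array was below each WT array, and the WT arrays lay closer together than the K289R arrays.

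Med21, a subunit of the Mediator middle module that pairs with Med7, ran from 5.15 over a median of 5.57 to 5.79 in K289R livers, against 6.51, 6.65 and 6.88 in WT livers. It fell by 1.11 ± 0.09 (adjusted p = 4.92e-08, limma), and the groups did not overlap. Taf1d, a subunit of the polymerase I factor SL1, had 7.13, 7.68 and 7.88 as lowest, median and highest level in K289R livers, against 8.43, 8.72 and 8.86 in WT livers. It fell by 1.10 ± 0.10 (adjusted p = 2.57e-07, limma), again without overlap.

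Polr2f, which encodes a small subunit common to polymerases I, II and III, ran from 8.21 over 8.41 to 8.63 in K289R livers, against 9.01, 9.28 and 9.34 in WT livers. It fell by 0.79 ± 0.08 (adjusted p = 3.70e-07, limma). At the other end, Med29, counted here with the Mediator head, had 7.59, 7.88 and 8.02 in K289R livers, against 7.04, 7.38 and 7.61 in WT livers. It rose by 0.47 ± 0.09 (adjusted p = 0.000813, limma). For Med29, 5 of the 7 K289R arrays were above each WT array and the other two were within the WT range. Polr2j, which encodes a polymerase II subunit that pairs with Polr2c, had 8.53, 8.88 and 8.97 in K289R livers, against 8.19, 8.38 and 8.61 in WT livers, and 6 of 7 K289R arrays lay above each WT array. It rose by 0.43 ± 0.08 (adjusted p = 0.00058, limma).

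**Figure D2:**
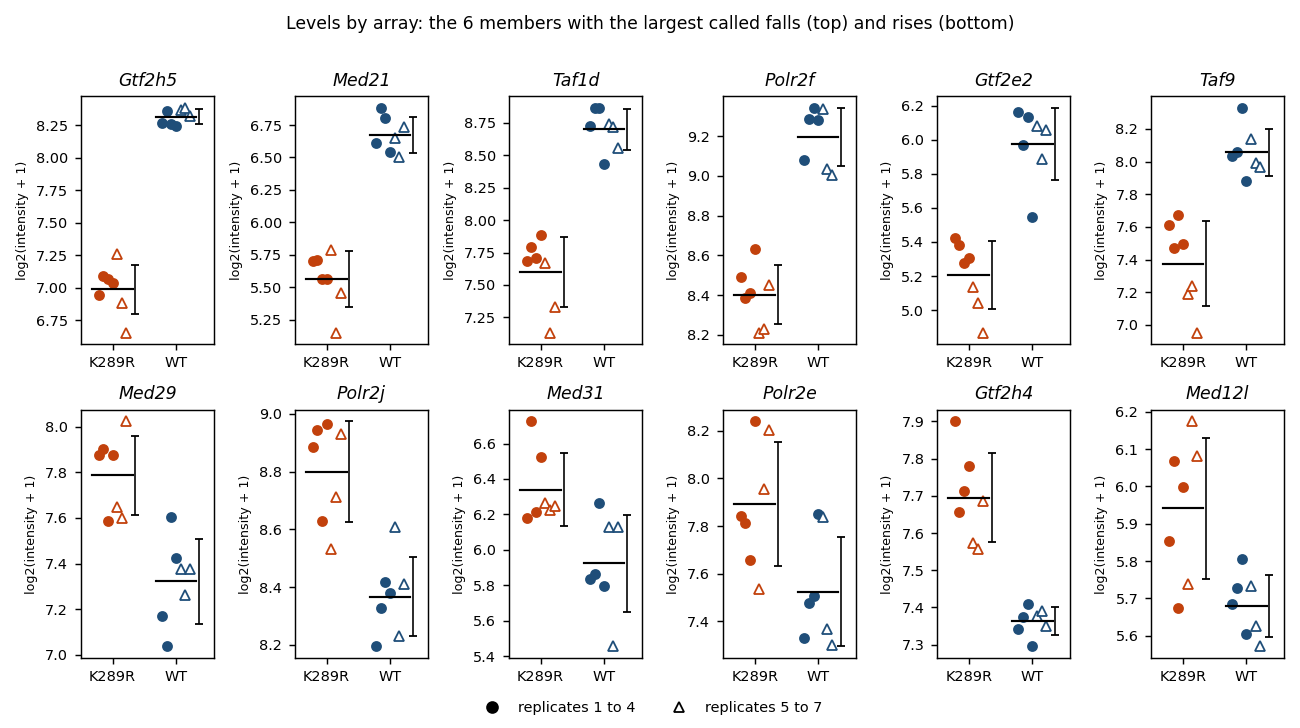
Level of 12 members on each array (y axis, log2(intensity + 1); the scale differs by panel), K289R left and WT right; filled circles are replicates 1 to 4, open triangles replicates 5 to 7, lines the mean and bars the SD of 7 arrays. In the top row the K289R arrays lie below all WT arrays for each gene, and in the bottom row the groups overlap except for Gtf2h4.

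The start regions of the 4 members with the largest falls and of the 2 with the largest rises are shown so that the sequences can be read beside the values. They are RefSeq windows of 300 bases on GRCm38.p6 that end inside the transcript, in the direction of the gene: chr17:6079578-6079877 (plus strand) for Gtf2h5, chr6:146642329-146642628 (plus) for Med21, chr9:15305964-15306263 (plus) for Taf1d, chr15:79141075-79141374 (plus) for Polr2f, chr7:28392641-28392940 (minus) for Med29 and chr5:136116441-136116740 (plus) for Polr2j. Capitals mark matches on either strand to any of 5 short motifs. TATAAA stands for the TATA box. The ETS core was searched as CCGGAAG. The GC box was searched as GGGCGG. The YY1 core was searched as AAGATGG. The E-box was searched as CACGTG. Matches of different motifs may overlap.
Gtf2h5: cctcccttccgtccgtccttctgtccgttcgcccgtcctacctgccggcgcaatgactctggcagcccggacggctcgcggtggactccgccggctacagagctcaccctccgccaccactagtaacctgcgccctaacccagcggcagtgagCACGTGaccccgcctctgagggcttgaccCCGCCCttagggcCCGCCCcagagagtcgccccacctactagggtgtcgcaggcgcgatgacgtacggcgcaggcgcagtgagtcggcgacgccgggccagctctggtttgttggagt
Med21: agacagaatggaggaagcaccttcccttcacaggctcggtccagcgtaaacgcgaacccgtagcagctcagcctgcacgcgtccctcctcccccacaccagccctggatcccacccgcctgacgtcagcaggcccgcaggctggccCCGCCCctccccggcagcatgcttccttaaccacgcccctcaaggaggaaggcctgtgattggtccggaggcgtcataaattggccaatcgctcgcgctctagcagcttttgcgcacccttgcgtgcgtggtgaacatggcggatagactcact
Taf1d: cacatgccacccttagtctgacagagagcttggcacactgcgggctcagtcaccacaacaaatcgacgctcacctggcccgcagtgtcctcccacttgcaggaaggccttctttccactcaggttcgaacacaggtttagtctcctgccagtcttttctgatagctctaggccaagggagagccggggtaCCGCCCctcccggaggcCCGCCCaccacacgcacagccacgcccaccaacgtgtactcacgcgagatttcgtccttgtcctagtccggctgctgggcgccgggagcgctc
Polr2f: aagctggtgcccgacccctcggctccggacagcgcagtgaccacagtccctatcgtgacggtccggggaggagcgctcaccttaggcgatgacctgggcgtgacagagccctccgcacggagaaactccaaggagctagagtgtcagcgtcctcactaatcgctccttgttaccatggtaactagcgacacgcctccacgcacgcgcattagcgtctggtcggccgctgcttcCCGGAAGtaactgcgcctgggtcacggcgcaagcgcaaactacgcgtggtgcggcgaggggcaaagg
Med29: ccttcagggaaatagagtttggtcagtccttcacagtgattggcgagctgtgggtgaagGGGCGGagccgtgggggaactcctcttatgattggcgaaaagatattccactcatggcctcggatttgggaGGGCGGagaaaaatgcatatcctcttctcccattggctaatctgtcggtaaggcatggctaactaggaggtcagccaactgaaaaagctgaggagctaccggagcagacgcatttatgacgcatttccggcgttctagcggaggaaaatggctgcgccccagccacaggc
Polr2j: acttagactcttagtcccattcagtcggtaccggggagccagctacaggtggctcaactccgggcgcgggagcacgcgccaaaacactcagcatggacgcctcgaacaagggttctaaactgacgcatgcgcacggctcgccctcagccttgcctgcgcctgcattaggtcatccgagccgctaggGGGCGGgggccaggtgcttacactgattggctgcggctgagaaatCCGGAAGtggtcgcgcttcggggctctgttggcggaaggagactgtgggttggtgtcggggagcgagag

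A GC box was found in each of these windows except that of Polr2f, the ETS core in those of Polr2f and Polr2j, and an E-box in that of Gtf2h5. No TATA box letters stood in any of the 6 windows. Windows were on hand for 78 of the 92 members and for 14832 of all genes, with the first listed window taken for a gene with several. The ETS core stood in 32.1% of the members' windows and in 12.3% of all windows, the E-box in 21.8% and 8.36%, the YY1 core in 14.1% and 6.45%, the GC box in 60.3% and 49.7% and the TATA box in 16.7% and 12.5%. The matches are a description of letters and were not tested.

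TFIID had 16 measured members, of which 4 fell, 1 rose and 11 did not pass, where 10.8% of all genes fell and 8.37% rose. The largest fall was that of Taf9, a histone-fold subunit that TFIID shares with the coactivator complex SAGA, by 0.68 ± 0.10 (adjusted p = 5.34e-05, limma). Its levels ran from 6.95 over 7.47 to 7.67 in K289R livers, against 7.88, 8.03 and 8.33 in WT livers, without overlap. Taf6, whose protein pairs with that of Taf9, rose by 0.20 ± 0.06 (adjusted p = 0.0273, limma), with 8.12, 8.27 and 8.36 in K289R livers, against 7.93, 8.06 and 8.18 in WT livers. Its call was lost without WT replicate 5 or 6 or K289R replicate 1 or 5.

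The other members of TFIID that fell were Taf13 (-0.45 ± 0.14), Taf7 (-0.38 ± 0.07) and Taf12 (-0.37 ± 0.09), and only for Taf7 did the arrays of the genotypes not overlap. Taf7 was among the 9 members with a mean level under 5, with means of 4.73 in K289R livers and 5.11 in WT livers. The call of Taf13 was lost in 6 of 14 fits that each left out an array, namely without WT replicate 1, 3 or 7 or K289R replicate 5, 6 or 7. Taf1, the largest subunit of TFIID, differed by -0.28 ± 0.12 (adjusted p = 0.123, limma), with a 95% interval of -0.54 to -0.03 before adjustment for multiple tests. Taf4, a scaffold subunit, differed by 0.01 ± 0.07, with an interval of -0.14 to 0.17.

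Of the 3 measured SL1 genes, Taf1d and Taf1b fell and Taf1a did not pass. Taf1b, a TFIIB relative, fell by 0.29 ± 0.10 (adjusted p = 0.0438, limma), and it no longer passed in 10 of 14 leave-one-out fits: without WT replicate 2, 3, 4, 6 or 7, or K289R replicate 2, 3, 5, 6 or 7. The level of Taf1b was also low, with means of 4.51 in K289R livers and 4.80 in WT livers. Outside TFIID and SL1, Taf15, an RNA-binding protein of the FET family, fell by 0.64 ± 0.10 (adjusted p = 7.33e-05, limma), with 6.73, 7.25 and 7.40 in K289R livers, against 7.66, 7.87 and 7.90 in WT livers. Taf5l, a subunit of SAGA, differed by 0.17 ± 0.07 (adjusted p = 0.106, limma).

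Of the 12 measured genes of TFIIA, TFIIB, TFIIE, TFIIF and TFIIH, 5 fell, 1 rose and 6 did not pass. Among all genes 10.8% fell and 8.37% rose. TFIIH held both directions. Besides Gtf2h5, Gtf2h1 fell, by 0.42 ± 0.10 (adjusted p = 0.00379, limma), and 6 of 7 K289R arrays were below each WT array. Gtf2h4, which anchors the helicase XPB in TFIIH, rose by 0.33 ± 0.06 (adjusted p = 0.000612, limma). Its levels were 7.56, 7.69 and 7.90 in K289R livers, against 7.30, 7.37 and 7.41 in WT livers, and Gtf2h4 was the member whose K289R arrays all lay above the WT arrays. Gtf2h3 differed by -0.21 ± 0.08 (adjusted p = 0.0671, limma).

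In each of TFIIA, TFIIE and TFIIF 1 subunit fell. Gtf2e2, the beta subunit of TFIIE, fell by 0.77 ± 0.10 (adjusted p = 1.72e-05, limma), at 4.87, 5.27 and 5.42 in K289R livers, against 5.55, 6.06 and 6.16 in WT livers. Its partner Gtf2e1 differed by -0.12 ± 0.07 (adjusted p = 0.29, limma). Gtf2f2, the small subunit of TFIIF, fell by 0.50 ± 0.08 (adjusted p = 0.000208, limma), whereas the large subunit gene Gtf2f1 differed by 0.03 ± 0.07. Gtf2a2, the small subunit of TFIIA, fell by 0.55 ± 0.13 (adjusted p = 0.00467, limma), with 4 of 7 K289R arrays below each WT array, and Gtf2a1, which encodes the precursor of the other subunits, differed by -0.06 ± 0.07. Differences between partner subunits were not tested as such. Gtf2b, the single gene of TFIIB, differed by -0.23 ± 0.08 (adjusted p = 0.0676, limma), and it passed in fits without WT replicate 1 or without K289R replicate 2.

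The TFII-I family, whose members bind DNA at selected genes, had 1 riser among 3, Gtf2ird1 (0.23 ± 0.07, adjusted p = 0.0312, limma). Its call was lost in 5 of 14 fits, without WT replicate 3 or 4 or K289R replicate 1, 4 or 5. Of 6 measured TFIIIC genes, Gtf3c6 fell by 0.65 ± 0.10 (adjusted p = 8.65e-05, limma), at 5.93, 6.35 and 6.56 in K289R livers, against 6.72, 7.00 and 7.19 in WT livers. The other 5 lay between -0.13 and 0.11 and did not pass.

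Mediator had 28 measured members, of which 4 rose, 2 fell and 22 did not pass, with a median difference of 0.06. Over all genes 8.37% rose and 10.8% fell, with a median difference of 0.05. In the middle module, Med21 fell and Med31 rose, the riser by 0.42 ± 0.12 (adjusted p = 0.014, limma). Med31 had 6.18, 6.25 and 6.72 in K289R livers, against 5.45, 5.86 and 6.27 in WT livers, and 2 of 7 K289R arrays were above each WT array. Med7, the partner of Med21, differed by 0.21 ± 0.09 (adjusted p = 0.0988, limma). It passed as higher with quantile normalization (adjusted p = 0.0315, limma) but not with median centring (adjusted p = 0.284, limma). In the genes counted here as the head module Med29 rose. Med8, another of these genes, fell by 0.41 ± 0.11 (adjusted p = 0.0137, limma, and 0.0769 with the sets as random blocks). Med18 (-0.25 ± 0.09, adjusted p = 0.053, limma) and Med20 (-0.23 ± 0.08, adjusted p = 0.07, limma) did not pass. Both passed as lower with quantile normalization (adjusted p = 0.0255 and 0.0446, limma). With median centring Med18 passed (adjusted p = 0.0292, limma) and Med20 did not (adjusted p = 0.0846, limma). Neither passed with the sets as random blocks.

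None of the 6 genes counted here as scaffold and tail passed with limma, and 3 of them had an unadjusted p under 0.05. With quantile normalization those 3, Med24 (adjusted p = 0.00523, limma), Med25 (adjusted p = 0.015, limma) and Med15 (adjusted p = 0.0326, limma), passed as higher. That setting called 10.8% of all genes higher, beside 8.37% in the main fit. Med24 and Med25 also passed with equal interquartile ranges. In the same order, the 3 did not pass with median centring (adjusted p = 0.222, 0.295 and 0.306, limma). Nor did they with the sets as random blocks (adjusted p = 0.167, 0.226 and 0.321, limma). In the main fit Med24, a tail subunit, came nearest, at 0.21 ± 0.07 (adjusted p = 0.0516, limma), and it passed without WT replicate 2, K289R replicate 3 or K289R replicate 6. Med14, the scaffold of the complex, differed by 0.08 ± 0.07, with an interval of -0.07 to 0.22. In the kinase module the paralogs Med13l (0.26 ± 0.07, adjusted p = 0.0135, limma) and Med12l (0.26 ± 0.08, adjusted p = 0.0296, limma) rose, and neither passed with median centring or with the sets as random blocks. Med12l had 5.68, 6.00 and 6.17 in K289R livers, against 5.57, 5.68 and 5.81 in WT livers, and its call was lost in 7 of 14 fits, without WT replicate 1, 4 or 7 or K289R replicate 2, 4, 6 or 7. Med12 differed by 0.07 ± 0.06 and Med13 by -0.08 ± 0.08, and neither passed.

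**Figure D3:**
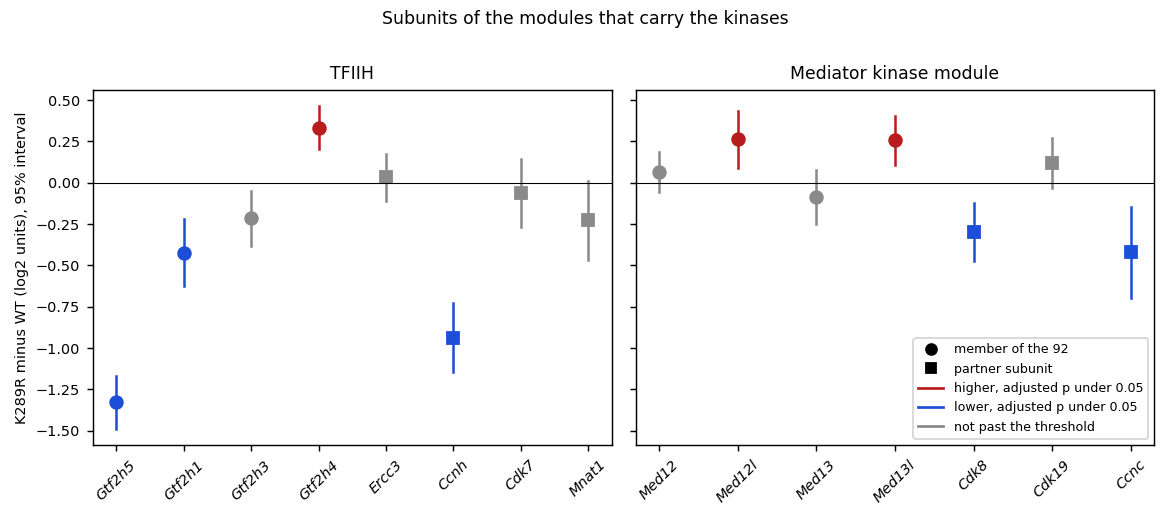
Difference K289R minus WT (y axis, log2 units) with 95% intervals for subunits of TFIIH (left) and of the Mediator kinase module (right); circles are members and squares partner subunits outside the 92. In TFIIH Gtf2h5, Gtf2h1 and Ccnh lie below 0 and Gtf2h4 above it, and in the Mediator module Med12l and Med13l lie above 0 and Cdk8 and Ccnc below it.

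Among the 21 polymerase subunits 2 rose, 6 fell and 13 did not pass, where 8.37% of all genes rose and 10.8% fell. Polr2a, the catalytic subunit of polymerase II, differed by -0.03 ± 0.08, with an interval of -0.20 to 0.15, and its WT arrays lay within the range of the K289R arrays. Polr2b, the second largest subunit, fell by 0.40 ± 0.10 (adjusted p = 0.0071, limma). Polr2m, which encodes a protein that binds polymerase II and competes with TFIIF, fell by 0.39 ± 0.08 (adjusted p = 0.00155, limma), with 7.03, 7.46 and 7.59 in K289R livers, against 7.62, 7.78 and 7.93 in WT livers. Polr2c, the partner of the riser Polr2j, differed by -0.14 ± 0.08 (adjusted p = 0.238, limma).

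Of the 4 measured subunits that all 3 nuclear polymerases share, 2 fell, 1 rose and 1 did not pass. Polr2f and Polr2k fell, the second by 0.56 ± 0.11 (adjusted p = 0.000639, limma), with 5.63, 5.99 and 6.49 in K289R livers, against 6.51, 6.61 and 6.78 in WT livers. Polr2e rose by 0.37 ± 0.11 (adjusted p = 0.0283, limma), with 7.54, 7.84 and 8.24 in K289R livers, against 7.30, 7.48 and 7.85 in WT livers. For Polr2e 3 of 7 K289R arrays were above each WT array, and the call was lost in 6 of 14 fits, without WT replicate 1, 2, 6 or 7 or K289R replicate 4 or 7. Polr2h differed by 0.003 ± 0.066.

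Polymerase III had 9 measured genes of its own, of which 2 fell and none rose with limma (0 rose at an unadjusted p under 0.05). Among all genes 10.8% fell and 8.37% rose. Polr3k, a small subunit that takes part in RNA cleavage at termination, fell by 0.66 ± 0.10 (adjusted p = 6.02e-05, limma), at 5.79, 6.15 and 6.57 in K289R livers, against 6.75, 6.85 and 6.91 in WT livers. Polr3f fell by 0.36 ± 0.11 (adjusted p = 0.0253, limma), a call lost in 5 of 14 fits, without WT replicate 1, 2 or 3 or K289R replicate 5 or 7. Polr3a, the catalytic subunit, differed by -0.03 ± 0.07, with an interval of -0.17 to 0.11. Polr2d-ps2, the pseudogene, differed by 0.05 ± 0.09 and did not pass.

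For 9 members more than 1 probe set was on the array. The further probe set of Taf9 fell by 0.29 ± 0.09 (adjusted p = 0.0254, limma over all probe sets with 1 symbol), a smaller value than the 0.68 of the one taken by the rule, and the mean of both gave -0.49. That of Taf13 fell by 0.32 ± 0.11 (adjusted p = 0.0367, limma). Of the 10 probe sets of Taf1d, 9 fell, by 0.38 to 1.10, and the last differed by -0.51 (adjusted p = 0.0705, limma). Among these 10, 4 held the same values and are no separate evidence. The probe set second in level, with means of 7.91 in K289R livers and 8.33 in WT livers, fell by 0.42 ± 0.08. The mean of all 10 gave -0.68, with the repeated values counted each time. The further probe set of Polr3e fell by 0.48 ± 0.08 (adjusted p = 0.000116, limma) while the one taken by the rule differed by 0.02 ± 0.06. Likewise a further probe set of Polr2h fell by 0.31 ± 0.08 (adjusted p = 0.0085, limma). For Polr2k the further probe set differed by -0.27 ± 0.13 and did not pass.

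Of 55 further genes of the machinery that the rule does not take, 49 were measured, and 6 rose, 12 fell and 31 did not pass, with a median difference of -0.09. That is 12.2% higher and 24.5% lower, beside 8.37% and 10.8% of all genes. Tbp, which encodes the TATA-box-binding protein itself, fell by 0.37 ± 0.08 (adjusted p = 0.00289, limma), at 6.44, 6.66 and 6.91 in K289R livers, against 6.83, 7.06 and 7.22 in WT livers. Ccnh, the cyclin of the TFIIH kinase, fell by 0.94 ± 0.10 (adjusted p = 1.06e-06, limma), whereas the kinase gene Cdk7 differed by -0.06 ± 0.10 (adjusted p = 0.707, limma). In the Mediator kinase module Cdk8 fell by 0.30 ± 0.08 (adjusted p = 0.0147, limma) and its cyclin gene Ccnc by 0.42 ± 0.13 (adjusted p = 0.0294, limma), and Cdk19 differed by 0.12 ± 0.07 (adjusted p = 0.282, limma). With the sets as random blocks neither Cdk8 (adjusted p = 0.0561, limma) nor Ccnc (adjusted p = 0.0812, limma) passed. Ccnc also missed the threshold in 7 of 14 leave-one-out fits, without WT replicate 1, 2, 3 or 5 or K289R replicate 5, 6 or 7.

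Factors of polymerases I and III also changed in both directions. Maf1, which encodes the repressor of polymerase III, rose by 0.59 ± 0.07, with 7.32, 7.45 and 7.64 in K289R livers, against 6.61, 6.90 and 7.01 in WT livers. Snapc3, a subunit of the complex that serves small nuclear RNA genes, fell by 0.86 ± 0.10. Polr1c (0.31 ± 0.06) rose and Polr1d (-0.32 ± 0.06) fell, although their proteins form a pair that polymerases I and III share. Of 18 measured elongation genes 3 rose and 3 fell, where 8.37% of all genes rose and 10.8% fell. The kinase gene Cdk9 was higher (0.42 ± 0.07), and the elongation factor genes Tcea1 (-0.63 ± 0.09) and Cdc73 (-0.66 ± 0.10) were lower. The other elongation genes called were Ell and Nelfcd, higher, and Leo1, lower, and none of these passed with the sets as random blocks (adjusted p = 0.0518, 0.0727 and 0.18, limma). Ell and Nelfcd also missed the threshold with median centring. Leo1 missed it in 10 of 14 leave-one-out fits, and passed without WT replicate 4 or 6 or K289R replicate 1 or 5. For Maf1, Snapc3, Polr1c, Polr1d, Cdk9, Tcea1 and Cdc73 the arrays of the genotypes did not overlap.

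Among replicates 1 to 4 alone, 7 members rose and 15 fell at an adjusted p of 0.05 in limma (background 6.92% and 7.16% of all genes). Among replicates 5 to 7 alone, none rose in limma (5 at an unadjusted p under 0.05) and 17 fell (background 1.89% and 7.27%), with 13 of the 21 fallers passing in each set. For Gtf2h5 the differences in these sets were -1.25 and -1.43, and for Med21 -1.07 and -1.16. For Taf13 they were -0.25 and -0.73, and for Polr2j 0.53 and 0.31. No member passed the interaction of genotype and set (lowest adjusted p = 0.25, limma; 11 at an unadjusted p under 0.05), where 0.114% of all genes did. With the 4 sets as random blocks 3 members rose (Med29, Polr2j and Gtf2h4) and 17 fell (background 4.01% and 7.3%). The calls of Taf13, Med8, Polr3f and Taf1b among the fallers, and of Med31, Polr2e, Med12l, Med13l, Gtf2ird1 and Taf6 among the risers, were lost in that fit.

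**Figure D4:**
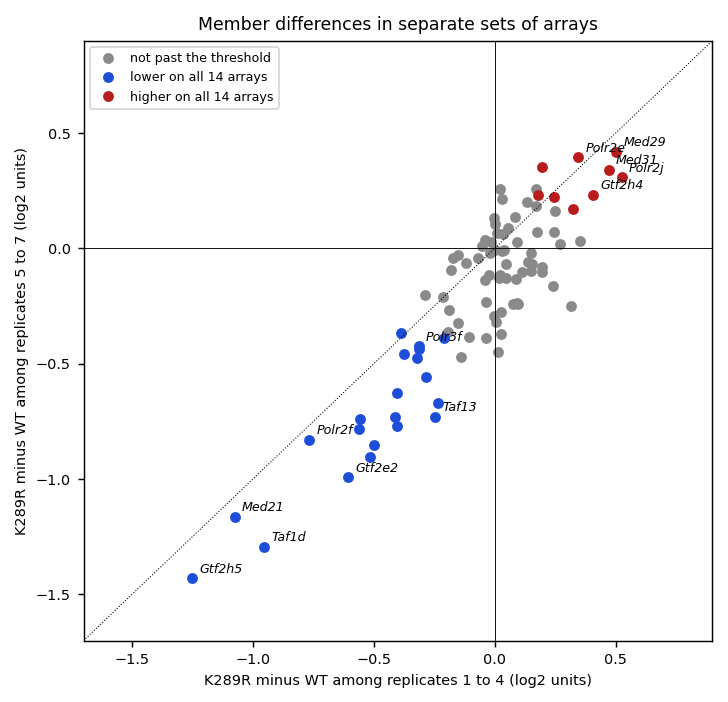
Difference K289R minus WT among replicates 5 to 7 (y axis) against that among replicates 1 to 4 (x axis), both in log2 units, for the 92 members; the dotted line marks equality. Members called lower lie in the lower left quadrant, and all but Taf7 below the dotted line, and members called higher lie in the upper right.

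K289R replicates 5 to 7 held the lowest K289R value of each of the 21 members that fell, and K289R replicate 7 did so for 15 of them, while over all genes it was the lowest K289R array for 17.2%. Replicates 5 to 7 held the lowest K289R value for 43.6% of all genes and for 84% of the 2068 genes called lower, which, like the 21 members, were chosen by low K289R values. Without K289R replicates 6 and 7, 10 members rose and 17 fell (background 9.07% and 8.7%). Without WT replicate 6 as well, 7 rose and 19 fell (background 8.72% and 9.69%). The fit with the replicate number as a block called 8.63% of all genes higher and 11.3% lower. Over the 92 members the difference among replicates 1 to 4 had a Spearman rho of 0.78 and a Pearson r of 0.89 with the difference among replicates 5 to 7, against 0.50 and 0.65 over all genes. These sets share no array, and genes are not independent replicates. The members were also brighter, with a median level of 6.64 against 5.70 over all genes, and no correlation at a matched level was taken.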

How the data were processed

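RNA from 14 livers was amplified from 100 ng and hybridised, 1 array per mouse, per the labels' protocols. The deposited values are linear intensities, 1 per probe set. The submitters' processing notes name Affymetrix Expression Console as the authors' software; its version, background correction and build are not given in the sources used here. Intensities ran from 2.10 to 12782, and array medians from 39.2 to 43.3. Arrays carry no read depth, so their number limits the precision.

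Of 35556 probe sets, 21456 had 1 gene symbol and 2376 had several, which left 13 probe sets naming a gene of these families unused. Symbols were updated through the Entrez identifier (GRCm38.p6, 21277 matched). Values were analysed as log2(intensity + 1), a scale that understates changes of dim genes, with limma 3.58.1 in R 4.3.3: genotype alone, intensity-trended prior, 2-sided, Benjamini-Hochberg over all 19237 genes, threshold 0.05, no filter. The fit was tested on simulated data with independent noise for each gene and array and changes only in genes above the median level. Such data hold no correlation within sets, so the test does not bear on calls that depend on the sets. Replicate numbers are shared by the genotypes, but same-numbered arrays had correlations of deviations from -0.30 to 0.56, with 3 of 7 over 0.1, so the arrays were not treated as pairs.

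The members, role groups, partner genes and markers were chosen with earlier results of these data known, and the sets of replicates 1 to 4 and 5 to 7 were noticed in those results. Genes named in full are up to 12 of the largest called rises and falls, the member with the smallest p in each group, 7 central subunits, the 8 partner genes with the smallest p, Tbp and Cdk8. Others were chosen after their values were seen. Protein lengths, planned as a feature, were not analysed here; gene span was used. Alternatives covered normalization, pseudocount, filter, probe set choice, variance prior, array weights, blocks, sets, thresholds and left-out arrays.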

Additional observations from a re-analysis of the deposited data

How the results depend on the processing

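The 21 falls were the steadier count. It lay between 15 and 25 over all alternatives at the threshold of 0.05, and was 18 to 23 when each array was left out in turn, while the 9 rises became 6 to 10. The rises numbered 4 with median centring, 3 with the sets as random blocks, 0 among replicates 5 to 7 alone and 3 at an adjusted p of 0.01. Over all genes, rises went from 8.37% in the main fit to 4.68%, 4.01% and 1.89% in the first 3 of these settings. Falls over all genes went from 10.8% to 10.6%, 7.3% and 7.27%. At an adjusted p of 0.01 no share over all genes was taken. The fit on replicates 5 to 7 holds fewer arrays, and it called 17 members lower (background 7.27%). The cause of these lower counts of rises was not tested in any of the settings. All 21 fallers kept their calls with quantile normalization and with median centring, and 20 did with equal interquartile ranges, where Taf1b missed (adjusted p = 0.0504). The fit with the replicate number as a replicate block gave 7 rises and 25 falls, and in 2 of 7 replicate numbers the best match was the same number. The median difference of the members was -0.04 on all arrays and ran from -0.06 to -0.02 when an array was left out. It was 0.01 among replicates 1 to 4 and -0.11 among replicates 5 to 7. The SD of the single-array medians over members was 0.10. That SD is no measure of the error of a difference between genotypes, and no such error was estimated for the median. Leaving out K289R replicates 6 and 7, alone or with WT replicate 6, was chosen after seeing the data and left 17 or 19 falls. The 49 measured partner genes gave 4 to 9 rises and 8 to 13 falls, where 8.37% and 10.8% of all genes passed in the main fit. No named gene changed sign with a call in any alternative. Of the members, 9 had a mean level under 5, where a difference is least certain to be above background.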

Other observations

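Over the 92 members the difference had a Spearman rho of 0.07 and a Pearson r of -0.03 with the log2 mean level, and 0.03 and 0.08 with the log10 of the gene span. Over all genes these values were -0.04 and -0.10 for level and -0.05 and -0.04 for span (19079 genes with a span). Genes of one array share its RNA and labelling, and these are descriptions. The gene span was a median of 10.4 kb for the members that fell, 7.44 kb for those that rose and 18.7 kb for the others. In the same order, spans ran from 3.00 to 114 kb, from 3.71 to 313 kb and from 0.93 to 178 kb. No median span over all genes was taken. The share of G and C in the start windows was a median of 61.7% for 17 members that fell and 62.7% for 9 that rose. It was 59.3% for all 78 members with a window and 57.3% for all genes.

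Taf9b, a paralog of Taf9, had the lowest adjusted p of the members for the interaction of genotype and set (adjusted p = 0.25, limma). Over all arrays it differed by 0.07 ± 0.10, with 0.31 in the set of replicates 1 to 4 and -0.25 in the set of replicates 5 to 7. It was chosen after its values were seen.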
